A study of Mus musculus with 6 samples.

Results

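The regions described here are 3124 stretches of quadriceps chromatin that were listed as acetylated at lysine 27 of histone H3 (H3K27ac) in detrained mice and had no counterpart in the list from control mice. They were chosen by 2 criteria, a Peak Score of at least 20 in the detrained list and no base shared with any listed control peak. The Peak Score is the number of tags in the peak, pooled over both libraries of the group, per 10000000 total tags. Of the 33423 detrained peaks that reached this score, the 3124 detrained-only peaks made up 9.35%, and the whole detrained list held 40721 peaks. The mirror set, chosen with the lists exchanged, was larger, with 4222 control-only peaks among 34089, or 12.4%.

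Both groups were wild type mice of the C57BL/6 strain per the labels, named as male C57BL/6J in the study's methods, and their quadriceps was profiled by chromatin immunoprecipitation sequencing (ChIP-seq). Detrained mice had running wheels for 4 weeks from 8 weeks of age and were then rested for 72 hours before harvest, whereas control mice were sedentary. Each group had 2 H3K27ac libraries, each from 1 quadriceps of 1 animal, and 1 input library without immunoprecipitation. The detrained libraries are called Ex1 and Ex2. H3K27ac libraries held between 20805019 and 22400894 tags, while input depth was unequal, at 10812470 tags for the control group and 21298438 for the detrained group. The labels give the inputs the strain names C57BL/7 and C57BL/8. The tables hold no value of a control library at a detrained-only peak, so membership is a matter of listing, and no test between the groups could be made. Peaks are not replicates of a condition, so the counts, shares and medians below are descriptions, and the intervals given cover counting error only.

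H3K27ac is laid down by the acetyltransferases p300 and CBP and marks promoters and enhancers that are in use, while its removal by histone deacetylases accompanies their silencing. Promoters are shared between many tissues, whereas enhancers, which often lie in introns or far from genes, carry most of the tissue-specific pattern of this mark. In skeletal muscle such enhancers are bound by factors such as MYOD, MEF2 and TEAD proteins, and AP-1, the dimer of FOS and JUN proteins, binds many enhancers that respond to stimuli. A bulk library of whole muscle also holds nuclei of vessels, connective tissue and immune cells.

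To show the AP-1 letters that are counted below, the central 300 bases of the following distal peaks are given, each beyond 10 kb from the nearest annotated start site. Capitals mark the AP-1 letters TGANTCA, searched on both strands. Ddit4l had the highest Peak Score of the detrained-only peaks and held no match in this window, and the next 5 were chosen because they held one, as did 5 of the 87 members named by rank or gene list whose single windows were written out. Coordinates and sequence are those of GRCm38 (mm10), read from the RefSeq assembly.
Ddit4l, chr3:137642832-137643131, plus strand: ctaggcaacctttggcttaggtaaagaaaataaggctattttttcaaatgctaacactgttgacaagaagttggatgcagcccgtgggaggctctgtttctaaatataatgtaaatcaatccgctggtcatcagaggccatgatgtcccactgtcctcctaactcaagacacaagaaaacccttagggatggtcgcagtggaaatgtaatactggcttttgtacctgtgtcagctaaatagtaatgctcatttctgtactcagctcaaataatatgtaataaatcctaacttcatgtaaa
Plpp1, chr13:112744803-112745102, plus strand: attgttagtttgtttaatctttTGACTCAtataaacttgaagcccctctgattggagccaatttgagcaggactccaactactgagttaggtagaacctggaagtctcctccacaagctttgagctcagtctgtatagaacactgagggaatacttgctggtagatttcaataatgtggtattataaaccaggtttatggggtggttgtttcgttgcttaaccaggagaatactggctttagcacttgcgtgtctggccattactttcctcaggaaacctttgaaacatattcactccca
Emcn, chr3:137150371-137150670, plus strand: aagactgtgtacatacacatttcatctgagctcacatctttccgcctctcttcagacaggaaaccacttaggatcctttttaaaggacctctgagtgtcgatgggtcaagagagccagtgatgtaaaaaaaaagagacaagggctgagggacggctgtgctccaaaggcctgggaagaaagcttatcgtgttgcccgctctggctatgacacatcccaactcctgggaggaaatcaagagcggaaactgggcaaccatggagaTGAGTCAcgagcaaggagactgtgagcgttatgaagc
Tek, chr4:94827321-94827620, plus strand: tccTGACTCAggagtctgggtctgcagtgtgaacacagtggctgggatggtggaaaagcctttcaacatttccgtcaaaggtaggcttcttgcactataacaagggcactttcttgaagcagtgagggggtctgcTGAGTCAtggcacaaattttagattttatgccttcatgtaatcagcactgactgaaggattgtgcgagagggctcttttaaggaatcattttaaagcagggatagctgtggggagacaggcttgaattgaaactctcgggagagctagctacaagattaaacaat
Jun, chr4:95100746-95101045, plus strand: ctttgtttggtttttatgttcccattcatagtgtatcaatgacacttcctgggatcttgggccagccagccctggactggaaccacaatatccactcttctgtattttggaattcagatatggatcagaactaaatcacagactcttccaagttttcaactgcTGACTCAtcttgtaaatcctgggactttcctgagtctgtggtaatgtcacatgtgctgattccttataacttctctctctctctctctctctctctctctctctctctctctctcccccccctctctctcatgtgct
Musk, chr4:58307444-58307743, plus strand: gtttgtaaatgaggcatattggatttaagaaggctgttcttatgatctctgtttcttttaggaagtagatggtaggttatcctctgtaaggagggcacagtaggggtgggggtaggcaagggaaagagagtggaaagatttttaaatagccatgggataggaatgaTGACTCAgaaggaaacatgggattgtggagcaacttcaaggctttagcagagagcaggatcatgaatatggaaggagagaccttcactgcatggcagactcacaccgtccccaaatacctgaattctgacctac

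Promoter members differed in base composition, and 2 of them are shown because their nearest genes had no listed control peak. Here capitals mark each CG dinucleotide, of which the window held 28 at Mxd1 and 16 at Egr2, against 3 at the Ddit4l peak above. The median over the 358 members within 1 kb of a start site was 15.
Mxd1, chr6:86669246-86669545, plus strand: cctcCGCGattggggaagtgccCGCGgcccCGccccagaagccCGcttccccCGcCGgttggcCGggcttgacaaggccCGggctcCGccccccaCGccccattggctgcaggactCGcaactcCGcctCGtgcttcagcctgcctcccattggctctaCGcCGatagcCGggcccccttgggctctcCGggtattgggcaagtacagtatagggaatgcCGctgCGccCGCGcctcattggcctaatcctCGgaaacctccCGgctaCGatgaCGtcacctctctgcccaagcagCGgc
Egr2, chr10:67537241-67537540, plus strand: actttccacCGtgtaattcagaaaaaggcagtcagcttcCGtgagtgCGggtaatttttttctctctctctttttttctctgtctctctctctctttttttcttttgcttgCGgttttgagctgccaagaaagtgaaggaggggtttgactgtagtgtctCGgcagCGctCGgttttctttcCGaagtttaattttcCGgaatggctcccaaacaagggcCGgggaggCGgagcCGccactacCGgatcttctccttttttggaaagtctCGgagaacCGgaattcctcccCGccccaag

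The letters of AP-1 were found within the central 300 bp of 410 of 3124 detrained-only peaks, or 13.1% (95% Wilson interval 12.0 to 14.3), and in 10.1% of all detrained peaks of Peak Score 20 or more. Control-only peaks held them in 10.7%, and 7.81% of 32851 RefSeq promoters of the same length held them. These shares depended on position. Among peaks beyond 1 kb from a start site with a Peak Score of 20 to 50, the letters stood in 339 of 2367 detrained-only peaks (14.3%), in 932 of 7343 other detrained peaks (12.7%) and in 373 of 3258 control-only peaks (11.45%). Within 1 kb of a start site and in the same score range, the share was 6.32% in detrained-only, 6.27% in other detrained and 6.77% in control-only peaks. No test was run on these shares, and a match is a run of letters, not a bound site.

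The E-box CAGCTG, recognised by MYOD and its relatives, was found in 20.5% of detrained-only peaks, in 19.01% of all detrained peaks and in 19.3% of control-only peaks. The TEAD letters GGAATG were found in 17.6% against 15.4% of all detrained and 17.7% of control-only peaks, and the MEF2 letters TAAAAATAG in 1.28% against 1.19% of all detrained peaks. Beyond 1 kb and at scores of 20 to 50, the E-box stood in 21.04% of detrained-only against 21.8% of other detrained peaks, the TEAD letters in 18.5% against 17.2% and the MEF2 letters in 1.44% against 1.69%, so the E-box and MEF2 order turned. Letters of nuclear receptors were scarce, with the NBRE AAAGGTCA in 2.34% against 1.88% of all detrained peaks (2.24% against 2.33% of other detrained peaks in that stratum), and the ERR site TCAAGGTCA, which holds AAGGTCA in common with the NBRE, in 0.512% against 0.787% of all detrained peaks (0.465% against 0.953% in that stratum, and 0.829% of control-only peaks there). The remaining letters were the MEF3 site TCAGGTTTC (0.480% against 0.470%), the CRE TGACGTCA (0.544% against 0.763%) and the CTCF core CCCTC (55.5% against 61.2%). In that stratum the CRE stood in 0.465% of detrained-only against 0.409% of other detrained peaks, so its order turned as well. The MEF3 site stood there in 0.507% against 0.490% and the CTCF core in 53.6% against 56.8%. Members had a lower base content of G and C, with a median of 47.3% in the central 300 bp against 49.7% in all detrained peaks, and a mean of 5.47 against 9.04 CG dinucleotides, and control-only peaks were lower still at 46.3% and 4.99. Beyond 1 kb from a start site the gap was small, with a median G and C content of 46.7% in members against 47.3% in all detrained peaks and a median of 3 CG dinucleotides in both. Within 1 kb it was wider, with 58.0% against 62.0% and a median of 15 against 21 CG dinucleotides. There, at scores of 20 to 50, members had 56.7% and 13, other detrained peaks 60.3% and 16, and control-only peaks 59.3% and 16. Repeat-masked bases made up on average 14.1% of the window in members and 13.6% in all detrained peaks.

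Detrained-only peaks were weak and short beside the rest of the list. Their Peak Score ran from 20.2 to 159.2 with a median of 29.9, against a median of 86.2 for the 30299 detrained peaks that overlapped a control peak. Their median length was 1472 bp against 2179 bp, and their median Peak Score per kb was 21.4 against 36.8. Control-only peaks were alike in these respects, with a median Peak Score of 30.1 and a median length of 1436 bp.

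The share of peaks listed in a single group fell steeply with Peak Score. Of detrained peaks with a score of 20 to 30, 1566 of 4879 were detrained-only (32.1%, 95% interval 30.8 to 33.4). The share was 17.0% from 30 to 50, 5.13% from 50 to 100 and 0.435% from 100 to 200, where 32 peaks remained. At 200 or more, 0 of 6003 detrained peaks lacked a control counterpart, which allows a share of up to 0.0640%. In every one of these bins the control list had a higher share of unmatched peaks, from 40.3% at 20 to 30 to 0.0656% at 200 or more. The members just inside the limit, near Sulf1, Dyrk3 and Lamc1, each scored 20.2, and the unmatched peaks just outside it, near Fhl2, D530049I02Rik and Clasp1, each scored 19.9.

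**Figure D1:**
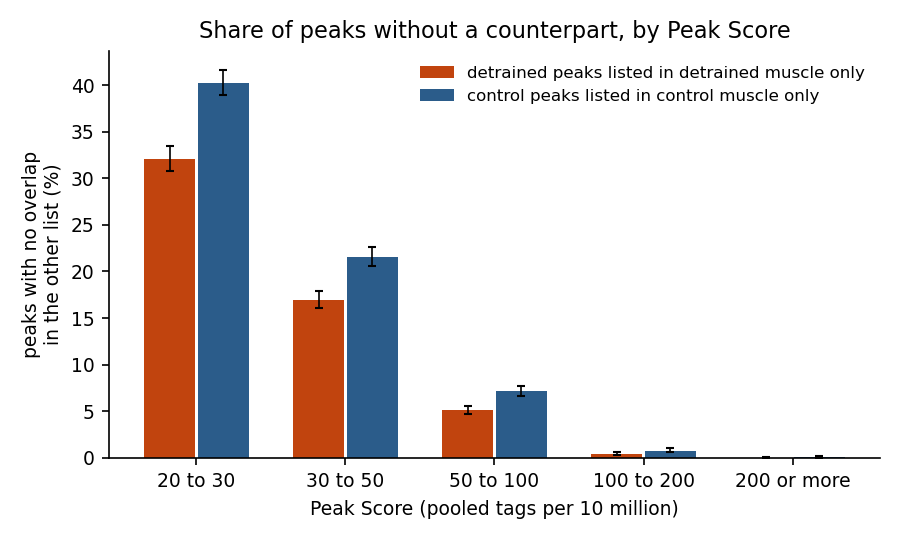
Share of peaks without an overlapping peak in the other list (%, vertical axis) by Peak Score bin (pooled tags per 10000000, horizontal axis) for the detrained list (orange) and the control list (blue), with 95% Wilson intervals of the counts. The share fell from 32.1% to 0 in the detrained list and from 40.3% to 0.0656% in the control list.

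On the deposited regularized log2 scale of tags per peak, which draws weak peaks toward the mean, Ex1 ranged from 4.77 to 8.49 with a median of 5.92, Ex2 from 4.61 to 8.28 with a median of 5.90, and the input from 1.93 to 6.14 with a median of 3.99. At all 3124 both libraries were at least 1 log2 unit above input, which the authors' calling of the list on these libraries over this input largely fixed. The median of the mean of both libraries minus input was 1.95, with 1.99 in Ex1 and 1.94 in Ex2, and it was 2.39 at the other detrained peaks. The 2 libraries differed by 0.5 log2 units or more at 10.6% of members and at 4.73% of the other detrained peaks. They differed by 1 or more at 6 members, near Mtmr10, Clip1, Nrxn3, Nav2, Pik3r5 and Prkch, with Ex1 higher at 4 of them. Ex1 was the higher library at 54.5% of members and at 61.8% of the other detrained peaks. By the authors' fold over input, 22.5% of members and 6.98% of the other detrained peaks lay under 4-fold. Requiring at least 4-fold over input and an adjusted p under 0.001 left 893 detrained-only peaks, or 3.57% of those that remained in the detrained list.

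**Figure D2:**
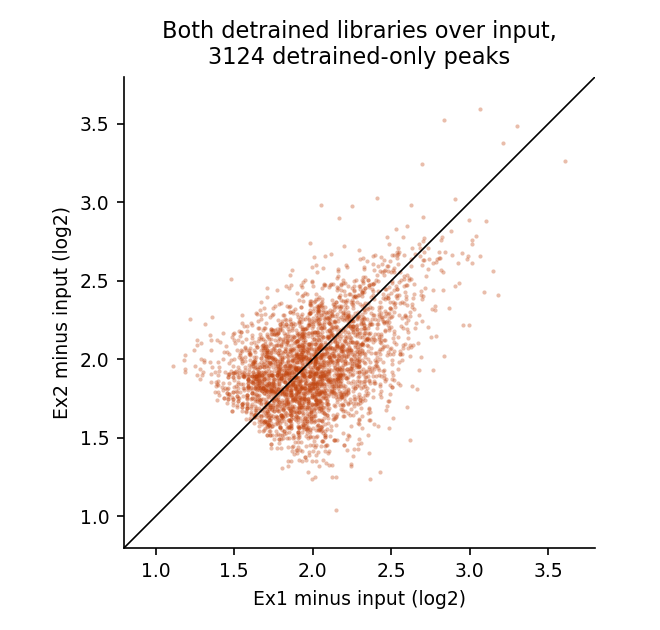
Log2 H3K27ac minus log2 input in Ex1 (horizontal axis) and Ex2 (vertical axis), 1 point per detrained-only peak, with the line of equal values. All points lie above 1 on both axes, and the medians are 1.99 and 1.94.

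Members lay farther from start sites than the rest of the detrained list. Promoters, as annotated in the table, held 171 members (5.47%) against 15.7% of the other detrained peaks. Introns held 1600 (51.2% against 47.7%) and intergenic sequence 1143 (36.6% against 28.1%). The remaining members were in exons (87), at transcript ends (49), in 3′ untranslated regions (33), in 5′ untranslated regions (24) and in non-coding exons (17). A start site was within 1 kb of 11.5% of members and 29.0% of the other detrained peaks, and it was over 100 kb away for 16.0% and 9.14%.

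Within a narrow range of scores the gap between classes was smaller. With scores of 20 to 50, 116 of 600 promoter peaks were detrained-only (19.3%, 95% interval 16.4 to 22.7), against 1356 of 5714 intron peaks (23.7%) and 982 of 4083 intergenic peaks (24.1%). In the control list the same classes gave 22.4%, 32.5% and 27.7%, so introns led there and intergenic sequence was level with introns in the detrained list. Across autosomes the share of detrained peaks that were members ran from 8.11% on chromosome 11 to 11.1% on chromosome 6. The X chromosome stood below them with 34 of 705 (4.82%, 95% interval 3.47 to 6.66), and its share of control-only peaks was 4.63%. The Y chromosome had 5 detrained peaks, of which 0 were members.

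**Figure D3:**
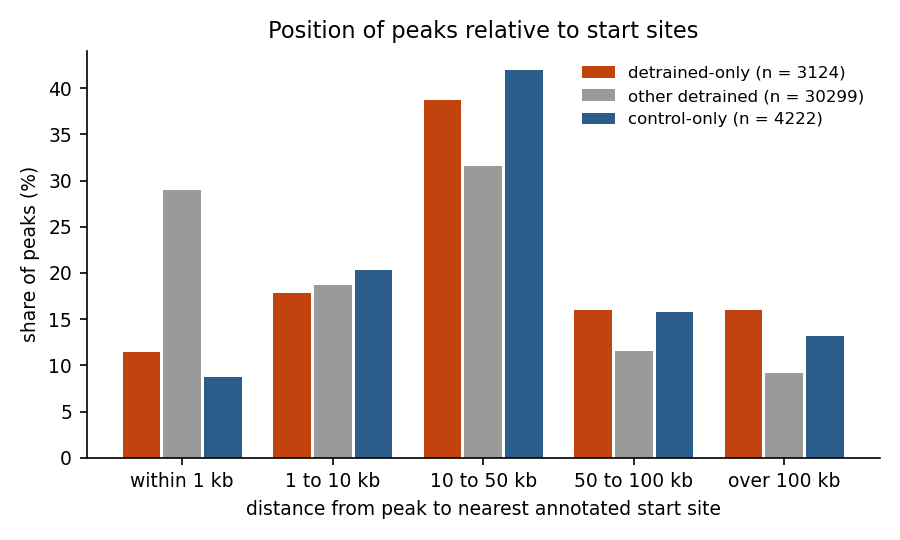
Share of peaks (%, vertical axis) by distance to the nearest annotated start site (horizontal axis) for detrained-only (orange), other detrained (grey) and control-only peaks (blue). Within 1 kb lie 11.5%, 29.0% and 8.72% of them.

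Members often sat near chromatin that was also listed as acetylated in control mice. The median distance to the nearest control peak, edge to edge, was 5445 bp, with quartiles of 2050 and 15005 bp. A control peak lay within 1 kb of 393 members (12.6%) and within 1 to 5 kb of a further 1106 (35.4%), while 111 members (3.55%) were over 100 kb from any. That nearest control peak had a higher Peak Score than the member in 56.5% of cases and a score under 20 in 29.8%. The distances of control-only peaks to the detrained list were alike, with a median of 5594 bp.

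**Figure D4:**
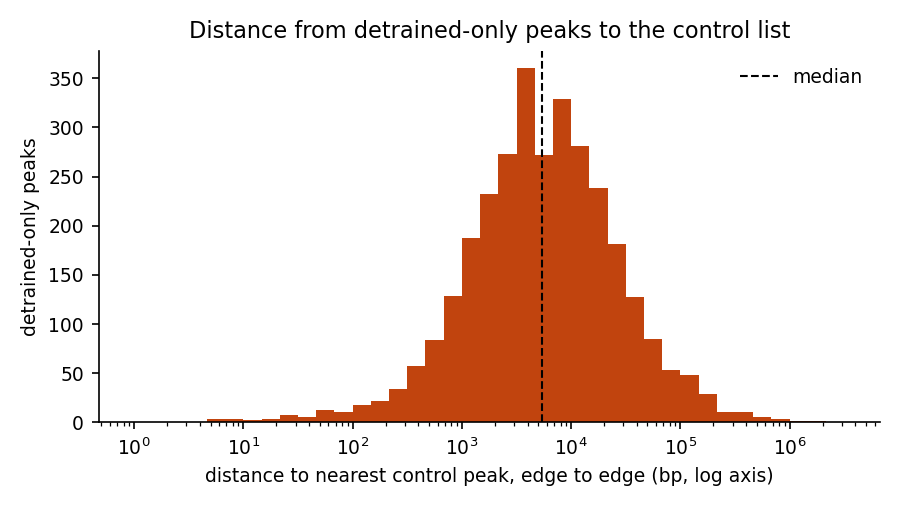
Number of detrained-only peaks (vertical axis) by distance to the nearest control peak in bp (horizontal log axis), with the median of 5445 bp as a dashed line. The tail reaches 1859405 bp.

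Peaks around the members that both lists shared differed little between the lists. Counterparts were taken as peaks of the 2 lists that met no other peak of the opposite list and covered each other by 50% or more. For 1278 such pairs within 10 kb of a member but not of a control-only peak, the median log2 ratio of detrained to control Peak Score per kb was 0.0048. The quartiles were -0.17 and 0.17, and 50.8% of these pairs were higher in the detrained list. Over all 24684 such pairs the median was -0.03 and 46.0% were higher, and for 1901 pairs near control-only peaks the median was -0.05 and 42.6% were higher. The tables were normalized separately to total tags, so these ratios rest on that scaling, and no test was run.

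The 15 members of highest Peak Score were broad and distal. They scored 119.1 to 159.2, spanned 3201 to 5609 bp, and none lay within 1 kb of a start site. Ddit4l encodes REDD2, an inhibitor of mTORC1 signalling in muscle. The intergenic peak near it (chr3:137640414-137645551, 19310 bp from its start site) had log2 values of 8.49 in Ex1, 8.28 in Ex2 and 6.08 in the input, and the nearest control peak, of Peak Score 527.2, was 12650 bp away. Tulp4, a member of the tubby family, held its peak in its first intron (chr17:6161182-6165657), at 8.32 in Ex1, 8.20 in Ex2 and 6.03 in the input. Plpp1, a phosphatase of lipid phosphates, had a peak 55824 bp from its start site at 8.34, 8.08 and 5.62 in the same order, and a control peak of score 109.5 lay 415 bp from it.

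Signalling genes followed in the ranking. Csf1, the growth factor of macrophages, had a peak over the last exon of its transcript (chr3:107739679-107745288) at 7.92 in Ex1, 8.22 in Ex2 and 5.91 in the input. Irak2, a kinase of interleukin-1 receptor signalling, had an intron peak at 8.19, 7.99 and 6.05. Ex1 was higher at 8 of the 15 and Ex2 at the other 7, so neither library led. At 14 of the 15 the libraries lay within 0.5 log2 units, the exception being Sdc3, a heparan sulfate proteoglycan, at 8.31 in Ex1 and 7.67 in Ex2. Nedd4, a ubiquitin ligase, had an intron peak at 7.89 in Ex1, 8.12 in Ex2 and 5.86 in the input, 1096 bp from a control peak of score 351.6. For 14 of the 15 nearest genes another peak was listed in control mice, the exception being the microRNA gene Mir1839.

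**Figure D5:**
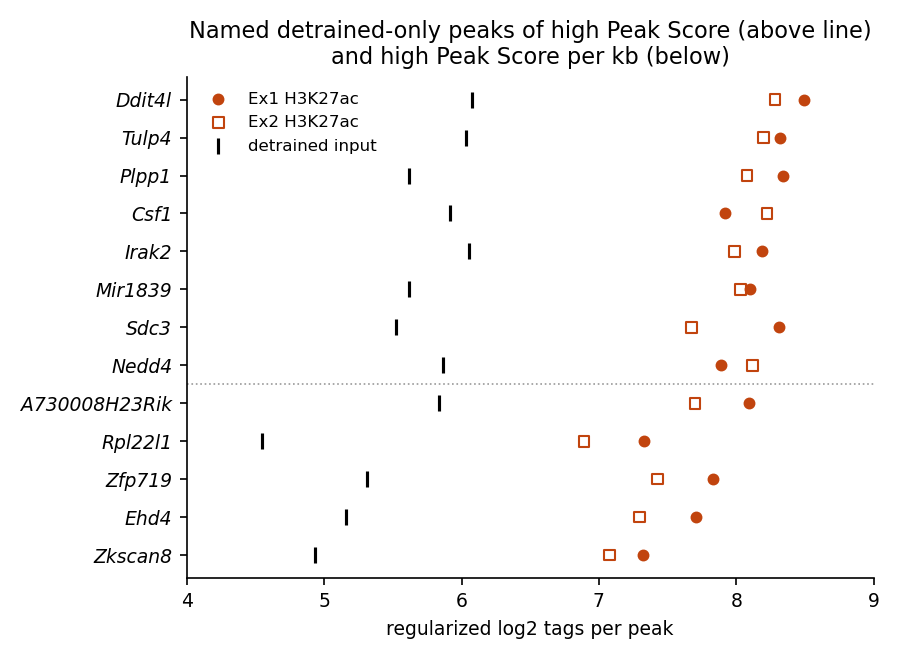
Regularized log2 tags per peak (horizontal axis) in Ex1 (filled circles), Ex2 (open squares) and the detrained input (bars) for members described by name among the 15 of highest Peak Score, above the dotted line, and among the 10 of highest Peak Score per kb, below it. In each row both H3K27ac libraries lie to the right of the input, which the calling of the list over this input largely fixed.

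Ranked by tags per kb the picture turned to start sites. Of the 10 densest members, 9 lay within 1 kb of one, and 7 of their nearest genes had no listed control peak. They ranged from 500 to 1676 bp in length and from 60.9 to 179.8 Peak Score per kb. The densest, in an exon near A730008H23Rik (chr1:88276954-88277587), had 8.09 in Ex1, 7.70 in Ex2 and 5.84 in the input over 633 bp, and its nearest control peak was 181212 bp away. Rpl22l1, a paralogue of a ribosomal protein, had 7.33, 6.89 and 4.55 at a peak 183 bp from its start site. Ehd4, an endocytic recycling protein, had 7.71, 7.30 and 5.16 over its first exon, although 8 peaks of the control list were annotated to it. Zinc finger genes Zfp719 (7.83, 7.42 and 5.32) and Zkscan8 (7.32, 7.08 and 4.93) were among them. Names beginning with Zfp, Zkscan or Zscan, counted after these values were seen, belonged to 21 of the 358 genes with a member within 1 kb of the start site (5.87%) and to 288 of 8938 genes with any detrained peak there (3.22%).

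The 10 promoter members of highest Peak Score ranged from 80.2 to 94.8. Mxd1, a partner of MAX that opposes MYC, led them with log2 values of 7.73 in Ex1, 7.53 in Ex2 and 5.58 in the input. Sf3b2, a splicing factor, had 7.44 in Ex1, 7.39 in Ex2 and 5.35 in the input, and Paf1, a cofactor of RNA polymerase II, had 7.45, 7.33 and 5.35. At these the libraries lay within 0.5 log2 units of each other. Egr2, an immediate early transcription factor, had 7.31 in Ex1, 7.42 in Ex2 and 5.20 in the input at chr10:67536673-67538110, 478 bp upstream of its start site, and it was the sole Egr2 peak in either list. The nearest control peak to it, of score 318.1 and annotated to Ado, was 8782 bp away.

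Over all members with a start site within 1 kb, 157 of the 358 genes had no peak in the control list, beside 302 of the 2499 genes of all members. For a gene with a sole peak at its start site this follows from the choice of members. Members within 1 kb of a start site were denser than other members, with a median Peak Score per kb of 30.9 against 20.9. The input over which control peaks were called held fewer tags than the detrained input, as given above, and whether that bears on a promoter being listed in 1 group was not tested.

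The 10 members farthest from any control peak lay 479357 to 1859405 bp away and scored 20.9 to 51.4. The farthest, in the first exon of Pcdh17, a protocadherin, had log2 values of 5.67 in Ex1, 5.33 in Ex2 and 3.89 in the input. Col22a1, a collagen of the junction between muscle and tendon, had an intron peak (chr15:71926117-71928033) at 6.71 in Ex1, 6.72 in Ex2 and 4.48 in the input, 880929 bp from a control peak. Chrm2, a muscarinic acetylcholine receptor, had 6.63, 6.83 and 4.88 at an intergenic peak 172175 bp upstream. The libraries lay close together at both. Nrxn3, a synaptic adhesion protein, was nearest to 2 of the 10, of which the weaker had 4.77 in Ex1 and 5.80 in Ex2, one of the wide gaps between the libraries.

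Members were spread over 2499 nearest genes, which was 18.4% of the 13610 genes nearest to any detrained peak of Peak Score 20 or more. Of these genes, 2197 (87.9%) also had a listed control peak, and 302 genes with 314 members had none, a count not made over all 13610 genes. The genes of control-only peaks numbered 3104, and 888 genes were in both sets, which is 35.5% of the former and 28.6% of the latter. The 28.6% stands beside the 18.4% of all genes that had a member, and no such share was worked out for control-only peaks. A gene with many peaks can enter both sets by their number alone, so the overlap does not show that the sets are related. Most genes had a single member (2019), 359 had 2 and 121 had at least 3. The highest number was 5, reached by Nfia, a transcription factor of the NFI family, by Sgms1, a sphingomyelin synthase, and by 4933416E03Rik, each with many peaks of which 29, 20 and 14 were listed in detrained mice with a score of 20 or more. At each of these 3 the control list also held peaks of its own, numbering 3 at Nfia, 6 at Sgms1 and 10 at 4933416E03Rik.

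Among genes with 4 members, some had none in the mirror set. Chd9, a chromatin remodeller, and Palm2 each had 4 detrained-only and 0 control-only peaks, of 11 and 6 detrained peaks of score 20 or more. Hif1a, the oxygen-regulated transcription factor, had 4 of its 8 detrained peaks as members and 1 control-only peak. The strongest of these lay in an intron of another transcript, 145788 bp upstream (chr12:73754324-73756749), at 6.74 in Ex1, 6.52 in Ex2 and 4.77 in the input, and a second, in the first intron of Hif1a, had 6.15, 6.04 and 4.33. The transcription factor gene Klf4 and the cytoskeletal genes Sptbn1 and Tns3 also had 4 each, with scores of 21.1 to 67.9, of 18, 11 and 20 detrained peaks and beside 2, 2 and 3 control-only peaks.

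Rasgef1b and 8430437L04Rik each had 3 peaks of score 20 or more in detrained mice, all of them members. To Rasgef1b, a guanine nucleotide exchange factor, no control peak was annotated. Its member at the start site (chr5:99251985-99253756) had 6.96 in Ex1, 6.43 in Ex2 and 4.87 in the input, and the other Rasgef1b members, both in introns, had 6.65, 6.81 and 4.48 and 6.56, 6.24 and 4.47. The nearest control peak to any of them was 141976 bp away.

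A few more of the genes with 3 members, picked for their known roles after their values were seen, are described here as examples. Mcu, the pore of the mitochondrial calcium uniporter, had 3 of 8 and 1 control-only peak. The strongest of these, 6846 bp upstream (chr10:59622310-59624766), scored 92.0, with 7.67 in Ex1, 7.49 in Ex2 and 5.35 in the input. Acvr2a, a receptor of activins and myostatin, had 3 of 18 and 0 control-only peaks, all intergenic, of which the strongest had 7.58, 7.24 and 5.55. Fstl1, a secreted glycoprotein, had 3 of 8 and 0 control-only peaks, and Runx1, a transcription factor that rises in denervated muscle, had 3 of 15 and 2. The counts leaned the other way at Mbnl1, a splicing factor sequestered in myotonic dystrophy, with 3 of 14 beside 9 control-only peaks.

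The quadriceps label was checked against markers, and of the muscle fibre markers 9 of 10 had a detrained peak of score 20 or more, with a median highest score of 800.4. Tnnt3 had none in either list by nearest gene. Of the adipocyte markers 1 of 5 had such a peak, Fabp4, while Adipoq, Plin1 and Cidec had no peak in either list. For Schwann cells the count was 2 of 4, for satellite cells 3 of 3, for fibroblasts 5 of 5, for endothelium 6 of 6 and for leukocytes 4 of 6.

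Of 86 detrained peaks of sarcomere genes, 9 were detrained-only (10.5%, beside 9.35% overall), at 8 of 28 genes (28.6%, beside 18.4% of genes overall). At 4-fold over input with an adjusted p under 0.001, 1 of these genes kept a member. The highest was intergenic near Actn2, a Z-disc protein, at 6.63 in Ex1, 6.51 in Ex2 and 3.83 in the input. Myh2, the fast oxidative myosin, had an intron peak at 6.47, 6.32 and 4.41, and Tnnt1, the slow troponin T, an intron peak at 6.11, 6.44 and 4.26 that was its sole peak of score 20 or more in either list. Members were also found near fibre genes with far stronger shared peaks, such as Acta1, skeletal actin, whose member scored 27.6 beside a highest detrained peak of 679.6, and Mb, myoglobin, at 27.1 beside 1223. Calcium handling genes had 5 members of 83 peaks (6.02%, beside 9.35% of all peaks) at 5 of 19 genes (26.3%, beside 18.4% of all genes). In the mirror set they had 7 control-only peaks at 7 of 19 genes (36.8%). Their members included those at Camk2d (6.42, 6.63 and 4.27) and at Cacna1s, the voltage sensor of excitation and contraction (6.55, 6.11 and 4.18).

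Glycolysis and glycogen genes had 1 member of 59 peaks (1.69%, beside 9.35% overall), in an exon near Pygm, muscle glycogen phosphorylase, at 6.39 in Ex1, 6.80 in Ex2 and 4.72 in the input and 698 bp from a control peak of score 1201.7. The median highest score of their peaks was 580. It was 640.7 for sarcomere genes and 624 for immediate early and AP-1 genes, whose shares of members were 10.5% and 9.80%. Oxidative metabolism genes had 7 of 88 (7.96%) at 5 of 29 genes (17.2%), near the overall shares, and 3 of the members were at Esrrg, a nuclear receptor of oxidative fibres. The highest of these, 77878 bp upstream, had 7.78 in Ex1, 7.13 in Ex2 and 5.35 in the input and was 80541 bp from a control peak. In control muscle the glycolysis and oxidative lists had 2 and 6 control-only peaks.

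Myogenic and fibre type regulators had members at 11 of 20 genes, with 17 of 148 peaks (11.5%, beside 9.35% of peaks and 18.4% of genes overall), and 21 control-only peaks at 8 of 21 genes. The number of genes was 6 with a Peak Score minimum of 30, 6 within 50 kb of a start site and 6 at 4-fold over input with an adjusted p under 0.001. Myf6, the myogenic factor MRF4, had a peak of score 115.9 in an intron of another transcript 73050 bp upstream (chr10:107566186-107569372), at 7.88 in Ex1, 7.94 in Ex2 and 5.21 in the input. Mef2c had an intron peak at 7.28, 7.45 and 4.98, Tead4 one at 6.96, 6.93 and 4.88, and Hdac4, a deacetylase that holds MEF2 in check, one at 6.82, 6.66 and 4.83. At each of these the libraries lay closer to each other than to the input, which the calling of the list over this input largely fixed. Each of the 11 genes also had a detrained peak of higher score than its members, which reached 1571 at Hdac4, where the highest member scored 51.9, and 129.8 at Tead4.

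Immediate early and AP-1 genes had 10 members of 102 peaks (9.80%, beside 9.35% overall) at 6 of 19 genes (31.6%, beside 18.4% of all genes), and 6 control-only peaks at 3 genes. Beside Egr2, Fosb had an intergenic peak 9150 bp upstream at 7.63 in Ex1, 6.90 in Ex2 and 5.07 in the input, with a control peak of score 14.9 lying 418 bp away. Klf6 had 6.21, 5.96 and 4.18, and Jun had 5.92, 5.95 and 3.91 at the peak shown by sequence above, whose score of 30.6 compares with 1682 at the highest Jun peak. Growth and atrophy genes had 4 of 74 (5.41%), at Fst, Foxo1, Foxo3 and Smad3, which is 4 of 21 genes (19.05%, beside 18.4% of all genes). The circadian list had 4 of 67 (5.97%) at 2 of 17 genes (11.8%), with Npas2 at 7.04 in Ex1, 7.28 in Ex2 and 5.23 in the input and 3 weak members at Rora. Control-only peaks of these lists numbered 10 and 8. Among genes of the neuromuscular junction and ion channels 4 of 55 peaks (7.27%) were members, at 2 of 16 genes (12.5%), beside 11 control-only peaks. The members lay at Kcnj11, a subunit of the ATP-sensitive potassium channel (7.19, 6.73 and 4.42), and Musk, the junction's receptor kinase (5.80, 5.71 and 4.08).

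Vessel genes had a higher share of members than the whole list, a difference that was not tested. Angiogenesis and hypoxia genes had 15 of 95 peaks (15.8%, beside 9.35% of all peaks) at 7 of 19 genes (36.8%, beside 18.4% of all genes). Their 13 control-only peaks lay at 10 of 19 genes (52.6%), a higher share of genes than for members. Endothelial markers, which share Kdr, Flt1 and Tek with that list, had 6 of 36 (16.7%) at 4 of 6 genes, beside 4 control-only peaks at 3 of 6 genes. The median highest score was 208.5 in the first list and 246.4 in the second, below the 640.7 of sarcomere genes. Whether peak strength bears on these shares was not tested. When members had to lie within 50 kb of a start site, 4 angiogenesis genes and 1 endothelial gene kept a member. Kdr, the main receptor of vascular endothelial growth factor, had an intergenic member at 7.43 in Ex1, 6.84 in Ex2 and 5.11 in the input, 39801 bp from a control peak. Flt1 had one at 6.31, 5.94 and 3.71, and Emcn one at 6.63, 6.39 and 4.41. Ex1 was the higher library at these 3, whereas at Tek it was lower, with 5.11 against 5.74. By highest peak the endothelial markers did not lean one way between the lists, with Pecam1 at 339.2 in detrained and 529.4 in control muscle, Flt1 at 284.3 and 169.7, and Kdr at 191.6 and 191.0. In bulk muscle, more nuclei of a cell type and more acetylation per nucleus cannot be told apart.

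Leukocyte markers had few peaks, and 3 of 6 were members, beside 9.35% of the whole list, while the control list had 2 control-only peaks at 2 of the 3 genes with a peak there. At 4-fold over input with an adjusted p under 0.001, 0 of these genes kept a member. They lay at Ptprc, the pan-leukocyte phosphatase CD45, and Adgre1, the macrophage marker F4/80. Ptprc had 6.69 in Ex1, 5.99 in Ex2 and 4.33 in the input within its gene (chr1:138173880-138175293), and no control peak was annotated to it. Adgre1 had 6.33, 6.18 and 4.33, 450 bp from a control peak of score 14.5. The highest peaks of the list in detrained and control muscle were 541.5 and 483.1 at Spi1, 114.5 and 109.1 at Csf1r, 37.5 and 20.6 at Adgre1 and 16.2 and 6.34 at Itgam. Ptprc reached 41.0 in detrained muscle, and Cd68 had no peak in either list. At Ptprc and Adgre1 the highest detrained peak was itself a member, so its order between the lists follows from the choice. The highest peak was also higher in the detrained list at all 5 fibroblast markers, such as Dcn (698.4 and 608.6). The tables were normalized separately, and the part of any of these cells in the members was not tested.

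Among connective tissue genes, extracellular matrix genes had 9 members of 132 peaks (6.82%) and fibroblast markers 2 of 17 (11.8%), on either side of the 9.35% overall. By genes both lay above the 18.4% of all genes, with 8 of 22 matrix genes (36.4%) and 2 of 5 fibroblast markers. The matrix list held 132 peaks at 22 genes, more per gene than the 33423 at 13610 genes overall. Its share of genes therefore does not show an excess of members. Control-only peaks of the matrix genes numbered 16. Col1a1, a fibrillar collagen chain, had the strongest, an intergenic peak 20953 bp upstream (chr11:94912328-94918215) at 7.93 in Ex1, 7.93 in Ex2 and 5.81 in the input, with a score of 116.6 and the greatest length of any member, 5887 bp. Col3a1 followed at 6.65, 6.18 and 4.47, and Tnc, tenascin C, had its sole detrained peak of score 20 or more as a member, at 6.04, 5.97 and 4.17. Pax7, the factor of satellite cells, had an intron member at 5.81 in Ex1, 6.33 in Ex2 and 3.91 in the input. The adipocyte and the Schwann cell markers had 0 members, of 2 detrained peaks of score 20 or more in each list, too few to set beside 9.35%.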

How the data were processed

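H3K27ac ChIP-seq of quadriceps was used from 2 control and 2 detrained libraries with 1 input per group. Per the labels reads were aligned to mm10 with Bowtie 1.2, and per the file headers peaks were called by the authors with HOMER, once per group on both H3K27ac libraries pooled against that input. The authors deposited a pooled signal per peak (Peak Score, tags per 10000000), a regularized log2 value per library from DESeq2 within HOMER, scaled to total tags within each table, and a log2 fold over input with an adjusted p-value. The deposited fold and p-value were used here to filter or describe peaks. The control columns are named C2 and C3, so they were assigned to the group.

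Overlap, distance, annotation and nearest gene were taken from the intervals and columns of both tables, with any shared base counted as overlap and length as end minus start. Nearest genes are those in the tables and do not show which gene a region acts on. Sequence came from RefSeq GRCm38.p6, which is mm10, in a 300 bp window at each peak centre. Every peak ended within its chromosome there. Members, gene lists and motifs were chosen with earlier results of these data known. Members were named by rule: the 15 of highest Peak Score, the 10 densest, the 10 farthest from control peaks, the 10 highest promoters, the 10 highest without a control peak at the gene, genes with 3 or more, up to 4 genes per list, and 3 on each side of the limit. Some named items are not reported here, and windows of named members on chromosome 18 were not written out. Of 18 lists and 9 motifs no set test was made. Interval and motif steps were tested on simulated data. Python 3.11.15, pandas 2.3.3, scipy 1.17.1 and samtools 1.23.1 were used.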

Additional observations from a re-analysis of the deposited data

How the results depend on the processing

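The number of detrained-only peaks depended on how a missing counterpart was defined. It was 1558 with a Peak Score minimum of 30, 7313 with no minimum, 5496 when under 50% coverage by control peaks sufficed, 4906 when control peaks under 20 were ignored, and 893 at 4-fold over input with an adjusted p under 0.001. Control-only peaks numbered 2113, 13104 and 978 with a minimum of 30, with none and at 4-fold. Under each alternative the control list kept the higher share of unmatched peaks (3.57% against 4.11% at 4-fold). The promoter share was 7.45%, 3.65% and 7.73% with a minimum of 30, with none and at 4-fold, and the intergenic share was 34.2% with a minimum of 30. The median distance to a control peak was 7463 bp from centre to centre. The median log2 over input was 1.94 to 1.99 with either library alone, 2.17 as the deposited fold, 2.04 with a minimum of 30, 1.83 with none and 2.20 at 4-fold. Genes with a member, summed over the 18 lists, numbered 71, and 24 at 4-fold to 117 with no minimum. In 1000 bp windows AP-1 letters stood in 34.1% of members and 28.0% of all detrained peaks. No paired analysis was possible because no test between groups was made, and columns C2 and C3 could not be matched to the replicate numbers of the control labels. With 2 libraries per group and no control value at the members, these lists do not show by how much acetylation differed.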
